A study of Mus musculus with 3 samples.

Results

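Chemokines and their receptors were examined in the distal colon of mice with and without dextran sulfate sodium (DSS) colitis. They were the genes whose probe sets on a GeneChip Mouse Gene ST array carried a single symbol beginning with Cxcl, Ccl, Cx3cl, Xcl, Cxcr, Ccr, Cx3cr, Xcr or Ackr followed by a number. Where a gene had more than 1 probe set, its probe set of highest mean signal was taken. This gave 56 genes on 61 probe sets, 34 ligands and 22 receptors, out of 19938 genes with a single symbol and 28944 probe sets in all. Ccl21 and Ccl27, whose gene copies share probe sets, fell outside the rule.

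The study asked how interleukin-4 receptor α (IL-4Rα), the subunit through which IL-4 and IL-13 signal, affects intestinal inflammation. All mice were adult BALB/c males, and IL-4Rα-/- mice carried the Il4ra tm1Sz allele in every cell and were littermates of the WT mice. WT normal mice drank water, whereas WT colitis and IL-4Rα-/- colitis mice were given 3% DSS, a polymer that injures the colonic epithelium, and colons were taken on day 7. RNA was pooled from 4 mice of the WT normal group, 3 of WT colitis and 6 of IL-4Rα-/- colitis, and each pool was measured on 1 array, so no difference has an error or a p-value. These are called the normal, WT colitis and IL-4Rα-/- arrays, and 3 values in a row are given in that order. Untreated IL-4Rα-/- mice were not analysed here, so the genotype without DSS cannot be told apart from the genotype in colitis. The disease activity index ran from 3 to 4 in the mice of the WT colitis pool and from 0 to 3 in those of the IL-4Rα-/- colitis pool, so the pools differed in severity as well as genotype.

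Chemokines are small secreted proteins that direct the migration of leukocytes by binding G protein-coupled receptors on their surface. CXC chemokines with an ELR motif draw neutrophils through Cxcr2, CC chemokines such as Ccl2 draw monocytes, and others hold lymphocytes in lymphoid follicles or guide plasma cells to mucosal surfaces. Atypical receptors bind chemokines without G protein signalling and remove or transport them. In the inflamed colon, epithelial cells, fibroblasts, endothelium and resident macrophages all release chemokines.

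The values are log2 signals as deposited. As a guide to background, 1193 probe sets for olfactory and vomeronasal receptors had a median of 2.44 and the 95th percentile at 3.5, and a signal below 4 is called dim here. A fold with 1 dim side is given as at least that fold, although the scatter near background could not be measured. Of the 56 genes, 25 were dim on all 3 arrays, 10 of the 34 ligands and 15 of the 22 receptors, and 26 were dim on none. Deposited values were often identical between arrays to 2 decimals. On all 3 arrays the same value was listed for 21 of the 56 genes (37.5%) and for 45.8% of all genes. A further 13 of the 56 (23.2%) had the same value on the normal and IL-4Rα-/- arrays only, as did 20.0% of all genes. A listed difference of 0 is therefore not read as an absence of change. The labelled tissue was borne out by its markers, since all 10 colon epithelial markers were far above dim on each array, from 7.17 for Cdx2 on the normal array up to 12.88 for Muc2 on the WT colitis array. The normal array also stood apart in genes of the exocrine pancreas, of which 8 had a median signal of 7.42 there, 3.33 on the WT colitis array and 3.10 on the IL-4Rα-/- array. The part of this in the differences from the normal array was not tested. The signal of Il4ra itself, the gene targeted, was 5.69 on the normal array, 6.63 on the WT colitis array and 4.76 on the IL-4Rα-/- array, and whether its probes lie in the deleted part is not known here.

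On the WT colitis array, 5 of the 56 genes were more than 2-fold higher than on the normal array and 0 were more than 2-fold lower, all 5 of them ligands. Of all genes, 1.16% passed 2-fold upward in that comparison and 0.456% downward. The 5 were Cxcl2, Cxcl5, Cxcl13, Ccl7 and Ccl2. Compared with WT colitis, 6 of the 56 genes were more than 2-fold lower on the IL-4Rα-/- array and 1 was higher, while 0.908% of all genes were lower and 0.271% higher. The 6 were the same 5 ligands and Ccl11, and the 1 higher gene was Ccl28. The median log2 difference of the 34 ligands was 0.18 in the first comparison and -0.155 in the second, that of the 22 receptors was 0 in both, and so was that of all genes. A high value on the WT colitis array alone would enter both comparisons, since they share it. By listed values, no gene of the 56 was past 4-fold in the first comparison, where 0.181% of all genes were higher by that much and 0.14% lower, or in the second, where 0.0451% were higher and 0.15% lower. Since these are pooled tissue samples, fewer cells of a type and less RNA per cell cannot be told apart.

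**Figure D1:**
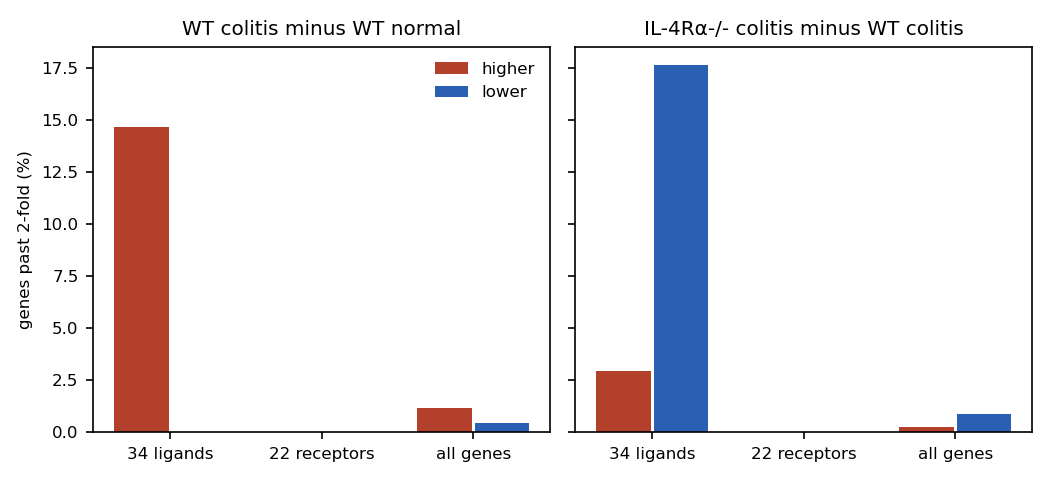
Share of genes more than 2-fold higher (red) or lower (blue) in percent (y axis) for the 34 ligands, the 22 receptors and all genes (x axis), for WT colitis against normal (left) and IL-4Rα-/- against WT colitis (right). Of the ligands, 5 were higher on the left and 6 lower on the right, while by listed values 0 receptors passed 2-fold in either direction, so that no bar stands there.

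By listed values, the neutrophil-attracting CXC chemokines were led by Cxcl2. With 32 added to the linear signals this lead was gone. Cxcl2, a ligand of Cxcr2, had a signal of 2.06, 4.05 and 2.30. It was dim on 2 arrays and just above dim on the WT colitis array, at least 3.97-fold higher than on the normal array and at least 3.36-fold higher than on the IL-4Rα-/- array. Cxcl5, an epithelial chemokine of the same receptor, had 2.41, 4.26 and 2.69 on these arrays. Its signal on the WT colitis array was at least 3.60-fold above the normal array and at least 2.97-fold above the IL-4Rα-/- array. Cxcl1, the third inducible ligand of this group, had 4.56, 5.38 and 4.56, and its difference of 1.77-fold in both comparisons stayed under 2-fold. Cxcl3 (2.62, 2.64 and 2.62) and Cxcl15, a lung chemokine (2.44 on each array), were dim throughout. Thus 2 of the 5 genes of this group passed 2-fold in each comparison, and the median log2 difference was 0.82 between the WT arrays and -0.82 between the colitis arrays, beside a median of 0 over all genes.

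Upstream sequences of this group are shown because Cxcl1, Cxcl2 and Cxcl3 carry the same letters for NF-kB, the transcription factor that inflammatory cytokines activate. They lie in a run of 4 neighbours on chromosome 5, in the order Cxcl3, Cxcl15, Cxcl1 and Cxcl2. By listed values only Cxcl2 of them passed 2-fold, and with 32 added to the linear signals it no longer did. The 250 bases before the start of each gene are given 5′ to 3′ from RefSeq (GRCm38.p6, the C57BL/6J reference, whereas these mice were BALB/c). Capitals mark matches to the NF-kB consensus of 10 bases on either strand, and the 11 bases in capitals hold 2 matches that overlap, shifted by 1 base.
Cxcl2, chr5:90903649-90903898, plus strand: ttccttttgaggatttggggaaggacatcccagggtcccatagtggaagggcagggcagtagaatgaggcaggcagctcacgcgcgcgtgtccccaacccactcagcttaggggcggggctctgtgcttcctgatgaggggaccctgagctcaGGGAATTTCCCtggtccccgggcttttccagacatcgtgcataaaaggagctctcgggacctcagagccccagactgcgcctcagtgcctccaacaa
Cxcl1, chr5:90890995-90891244, plus strand: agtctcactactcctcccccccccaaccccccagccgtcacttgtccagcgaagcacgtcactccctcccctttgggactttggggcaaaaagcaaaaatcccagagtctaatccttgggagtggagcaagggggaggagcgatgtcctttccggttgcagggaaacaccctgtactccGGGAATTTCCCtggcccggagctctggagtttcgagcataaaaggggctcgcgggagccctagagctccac
Cxcl3, chr5:90785851-90786100, plus strand: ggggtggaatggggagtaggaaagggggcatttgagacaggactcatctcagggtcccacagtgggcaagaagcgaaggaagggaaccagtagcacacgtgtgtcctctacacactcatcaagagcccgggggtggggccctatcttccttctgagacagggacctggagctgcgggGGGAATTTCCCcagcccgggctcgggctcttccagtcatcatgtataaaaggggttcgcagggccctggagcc
The first base in capitals lay 97 bases before the start in Cxcl2, 71 in Cxcl1 and 73 in Cxcl3. Promoter sequences were listed for 42 of the 56 genes, and 11 of the 42 (26.2%) held an NF-kB match in these 250 bases, against 8.23% of 27025 genes in the table. Cxcl15 was listed and held none. Of the genes past 2-fold, Cxcl2, Cxcl13 and Ccl28 were among the 42 and Cxcl2 held a match, while Cxcl5, Ccl2, Ccl7 and Ccl11 were not listed. The other genes with a match were Cxcl10, Ccl1, Ccl9, Ccl20, Ccr1, Ccr3, Ccr6 and Ackr2, and Ccl1, Ccr1, Ccr3, Ccr6 and Ackr2 were dim on all 3 arrays. Letters for STAT6, the factor that IL-4Rα activates (TTCNNNNGAA, the same on both strands), were found in 1 of the 42, Ccl17, which held no NF-kB match, against 6.76% of genes in the table. A match describes letters only.

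Among the inflammatory CC chemokines, the monocyte chemoattractants Ccl2 and Ccl7 passed 2-fold in both comparisons. Ccl2, the main ligand of Ccr2, had 5.10, 6.37 and 5.10. Its signal on the WT colitis array was 2.41-fold above each of the other arrays, and it was not dim on any. Ccl7, a second ligand of Ccr2, had 4.96, 6.29 and 4.81, and was 2.51-fold higher on the WT colitis array than on the normal array and 2.79-fold lower on the IL-4Rα-/- array than on the WT colitis array. The remaining 7 genes of this group stayed within 2-fold. Ccl6, a chemokine of myeloid cells, had 9.94, 9.73 and 9.76, and Ccl9, a ligand of Ccr1, had 7.05, 7.32 and 7.11. Ccl5, a T cell and natural killer cell chemokine, had 6.84, 6.71 and 7.23. It was thus highest on the IL-4Rα-/- array, 1.43-fold above WT colitis. Ccl8 had 5.34, 5.79 and 5.52. Ccl3 went from 3.88 on the normal array to 4.50 on both colitis arrays, and Ccl4 and Ccl12 were dim with the same value on each array. Of the 9 genes, 2 passed 2-fold in each comparison, with a median of 0.27 in the first and 0 in the second.

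Ccl2 and Ccl7 lie in a run of 6 neighbouring chemokine genes on chromosome 11, in the order Ccl2, Ccl7, Ccl11, Ccl12, Ccl8 and Ccl1. The first 3 of them were more than 2-fold lower on the IL-4Rα-/- array than on the WT colitis array. Ccl8 differed by -0.27 on the log2 scale, and Ccl12 and Ccl1 were dim with no listed difference. In a second run of 5 neighbours on the same chromosome, Ccl5, Ccl9, Ccl6, Ccl3 and Ccl4, differences in the same comparison lay between -0.21 and 0.52. These genes were described after their values were seen.

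Ccl11 was the one gene of the eosinophil and type 2 group past 2-fold. Ccl11, eotaxin, which draws eosinophils through Ccr3 and is inducible by IL-4 and IL-13, had a signal of 6.97, 7.82 and 6.23. It was 1.80-fold higher on the WT colitis array than on the normal array and 3.01-fold lower on the IL-4Rα-/- array than on the WT colitis array. On the IL-4Rα-/- array, Ccl11 differed from the normal array by -0.74 on the log2 scale. Ccl17, a ligand of Ccr4, had 4.50, 4.71 and 4.50, and Ccl22, its partner at this receptor, was dim throughout with 3.53, 3.81 and 3.53. Ccl1, a ligand of Ccr8, and Ccl24 and Ccl26, further eotaxins, were dim with the same value on each array. Eosinophil markers were nearly all dim too. Of 6 measured, 5 were dim on all 3 arrays, the median was 2.65, 2.77 and 2.58, and Ccr3 itself was 2.86 on each array.

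Between the WT arrays, Cxcl13 had the largest difference among the ligands that were not dim on any array. Between the colitis arrays, Ccl11, Ccl7 and Ccl2 differed more than Cxcl13. Cxcl13, which recruits B cells into follicles through Cxcr5, had a signal of 7.99, 9.65 and 8.50. It was 3.16-fold higher on the WT colitis array than on the normal array and 2.22-fold lower on the IL-4Rα-/- array than on the WT colitis array, and on the IL-4Rα-/- array it was 0.51 above normal on the log2 scale. Cxcr5, its receptor on B cells, had 3.21, 4.20 and 3.21, at least 1.99-fold higher on the WT colitis array than on each of the other arrays, where it was dim. Its listed difference of 0.99 lay just under the 2-fold threshold of 1. Of 8 markers of B cells and plasma cells, 7 had a higher signal on the WT colitis array than on the normal array and 7 a lower signal on the IL-4Rα-/- array than on the WT colitis array, with median differences of 0.68 and -0.52. Their summed linear signal of 1039, 1725 and 1411 was made up mostly of Jchain, a plasma cell gene (10.28 on the WT colitis array against 9.51 normal and 10.09 IL-4Rα-/-). The B cell genes Cd79a (6.46, 7.10 and 6.41), Cd79b (6.36, 6.80 and 6.26) and Pax5 (3.62, 4.34 and 3.62) were not above normal on the IL-4Rα-/- array, and all 4 of these genes were named after their values were seen. Ms4a1, which encodes CD20, had 4.87, 5.99 and 5.05. The part of B cell number in the Cxcl13 and Cxcr5 differences was not tested. The other lymphoid chemokines differed less. Ccl19, a ligand of Ccr7, had 4.88, 5.23 and 4.88, and its 5 probe sets had differences between 0.23 and 0.35 between the WT arrays, with near-identical pseudogene copies that can share its signal. Cxcl12, the ligand of Cxcr4, had 5.80, 5.94 and 5.90.

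**Figure D2:**
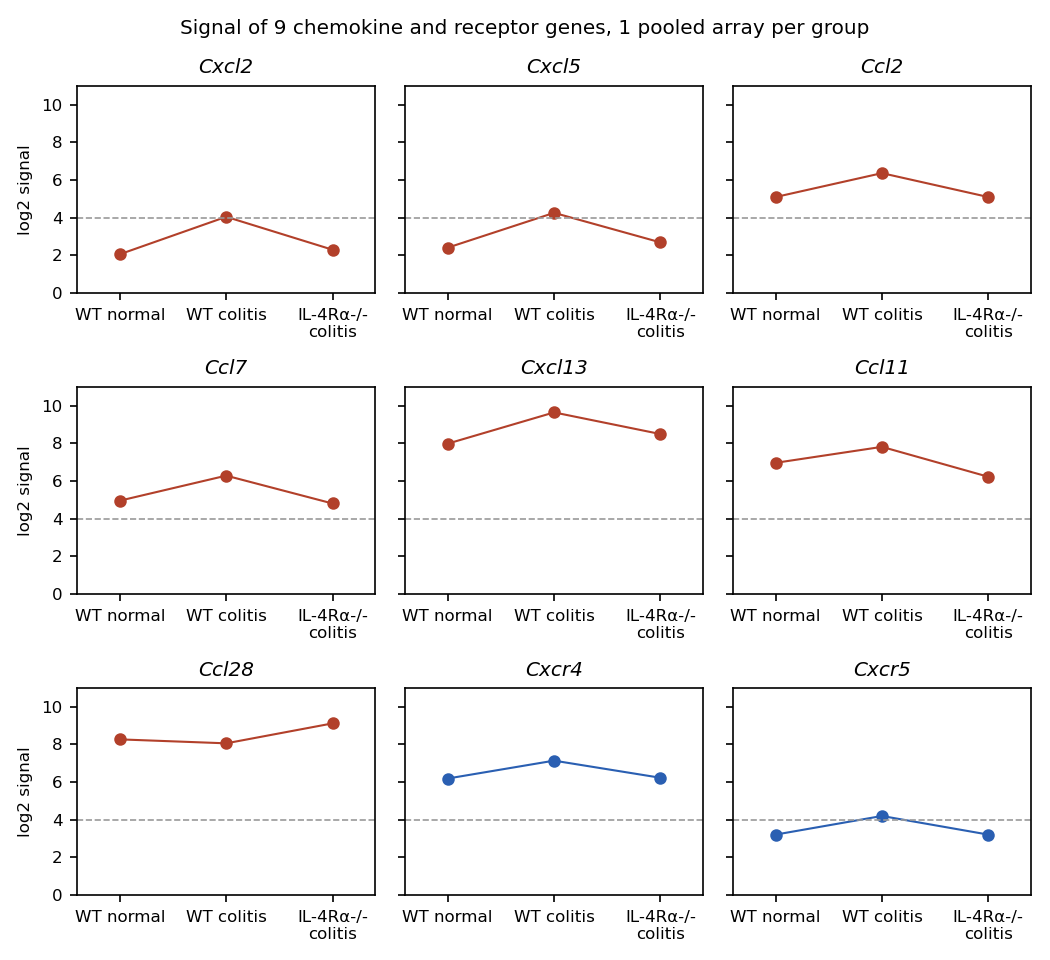
Log2 signal (y axis) on the 3 arrays (x axis), 1 point per pooled array, for 7 ligands past 2-fold in a comparison (red) and 2 receptors with listed differences just under it (blue), with the dim level of 4 as a dashed line. Cxcl13 had 7.99, 9.65 and 8.50, and Cxcl2 lies above the dashed line only on the WT colitis array, at 4.05, whereas Ccl28 is highest on the IL-4Rα-/- array, at 9.12.

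The epithelial and mucosal chemokines held the single gene that was more than 2-fold higher on the IL-4Rα-/- array than on the WT colitis array. Ccl28, an epithelial chemokine that attracts IgA plasma cells through Ccr10, had a signal of 8.27, 8.06 and 9.12. It was 2.08-fold higher on the IL-4Rα-/- array than on the WT colitis array, just past the threshold, and 1.80-fold higher than on the normal array. Ccr10 had 4.30, 4.35 and 4.30. Ccl20, which attracts Ccr6-bearing lymphocytes and dendritic cells, also had its highest signal on the IL-4Rα-/- array, with 4.45, 4.92 and 5.29, a difference of 0.84 from the normal array on the log2 scale. Its receptor Ccr6 was dim, at 2.74 on each array. Cxcl16, a transmembrane ligand of Cxcr6, had 5.22, 5.83 and 5.35, and Cxcl14, made by resting epithelia, had 6.53, 6.55 and 6.10. Neither passed 2-fold. Cx3cl1, the transmembrane chemokine fractalkine, was 5.74 on each array. Ccl25, which draws lymphocytes to the small intestine through Ccr9, had 4.18, 4.21 and 4.18 on the probe set used and 3.82, 4.12 and 3.80 on its other one, and Cxcl17, a mucosal chemokine, was dim with 3.66, 3.81 and 3.66. Among the 10 colon epithelial markers the median difference was 0.015 between the colitis arrays, and 0 of the 10 passed 2-fold. The one nearest to it was Slc26a3, a chloride transporter of surface colonocytes, with 10.11, 9.05 and 10.01, which was 1.95-fold higher on the IL-4Rα-/- array than on the WT colitis array and more than 2-fold lower on the WT colitis array than on the normal one. Its part in the Ccl28 difference was not tested.

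The interferon-inducible ligands of Cxcr3, which draw activated T cells, stayed within 2-fold. Cxcl9 had 6.43, 6.96 and 6.80, and Cxcl11 had 5.55, 6.22 and 5.55. Cxcl10 had 7.02, 6.78 and 6.24, the one of the 3 whose signal was highest on the normal array. Its log2 difference from the normal array was -0.78 on the IL-4Rα-/- array, and the log2 differences of all 3 ligands from WT colitis lay between -0.67 and -0.16 there. The annotation used lists Cxcl11 as a transcribed pseudogene of the C57BL/6J reference, a strain other than that of these mice. Cxcr3 was dim, at 3.12 on each array. Xcl1, a lymphocyte chemokine, and its receptor Xcr1 were dim as well, at 3.41 on each array.

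By listed values, no receptor passed 2-fold in any comparison, and 15 of the 22 were dim on all arrays. Cxcr4, the receptor of Cxcl12 on most leukocytes, had a signal of 6.19, 7.14 and 6.23, 1.93-fold higher on the WT colitis array than on the normal array and 1.88-fold lower on the IL-4Rα-/- array than on the WT colitis array. Ccr7, which guides dendritic and naive T cells to lymph nodes, had 5.73, 5.80 and 5.59. Cx3cr1, a receptor of resident macrophages, was 5.60 on each array, and Ackr4, an atypical receptor that scavenges Ccl19 and Ccl25, was 4.69 on each array. Receptors of the neutrophil and monocyte chemokines past 2-fold were dim. Cxcr2, the receptor of Cxcl2 and Cxcl5, had 2.06, 2.53 and 2.20, and Ccr2, the receptor of Ccl2 and Ccl7, had 3.08, 3.36 and 3.17. Of the 22 receptors, 9 were higher on the WT colitis array than on the normal array and 0 lower. The same 9 were lower on the IL-4Rα-/- array than on the WT colitis array and 0 were higher. These differences were at most 0.99 in size, and the other 13 receptors had a single value on all arrays. Of all 19938 genes, 7130 had a higher value on the WT colitis than on the normal array, 2383 a lower one and 10425 the same. From the WT colitis to the IL-4Rα-/- array, 7432 of all genes had a lower value, 2074 a higher one and 10432 the same. The WT colitis array was the highest of the 3 for 40.9% of the receptors and for 30.4% of all genes. Ackr1, the atypical receptor of venules, had 3.87, 4.14 and 3.87, and Ackr3, which scavenges Cxcl12, had 3.47, 3.58 and 3.47. Ccr4, the receptor of Ccl17 and Ccl22 on T helper cells, was dim with 3.17, 3.35 and 3.13. Cxcr1, Cxcr6, Ccr1, Ccr1l1, Ccr8, Ccr9 and Ackr2 were dim with the same value on each array, so that no statement on them can be made.

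**Figure D3:**
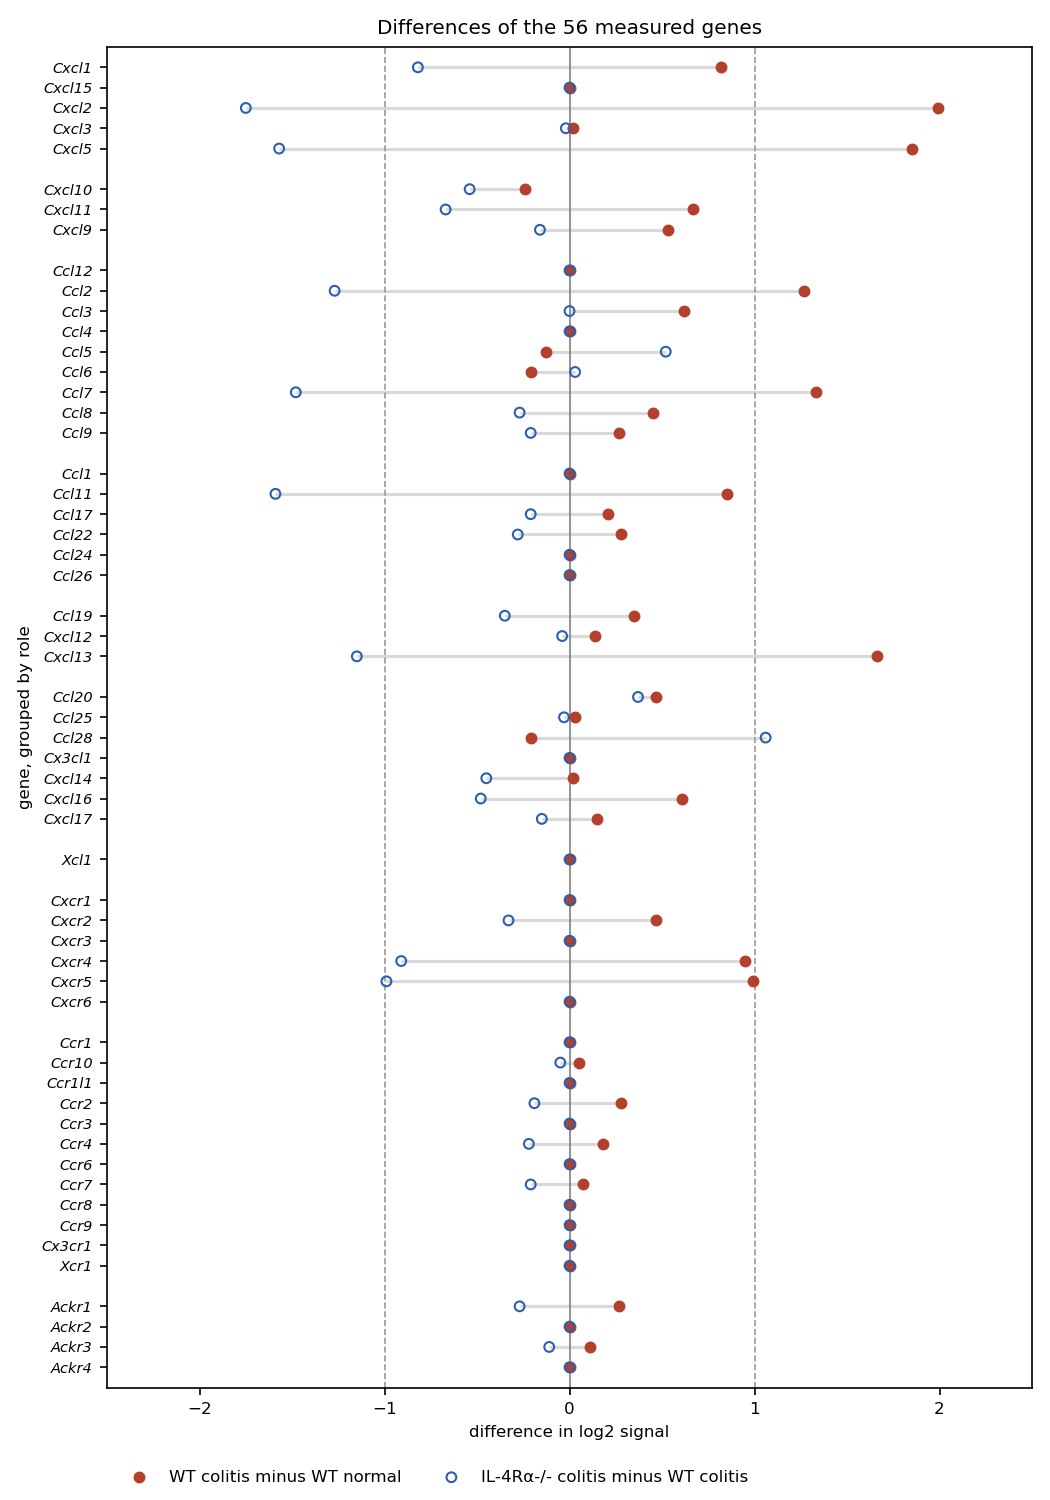
Difference in log2 signal (x axis) of the 56 genes (y axis, grouped by role) for WT colitis minus normal (filled red) and IL-4Rα-/- minus WT colitis (open blue), with dashed lines at the 2-fold level. Cxcl2 reaches 1.99 and -1.75, while Ccl28 lies at -0.21 and 1.06 and genes with 1 value on all arrays lie at 0.

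Against the normal array, 0 of the 56 genes were more than 2-fold different on the IL-4Rα-/- array, while 0.186% of all genes passed 2-fold upward and 0.336% downward. Past 4-fold there were again 0 of the 56, beside 0.0251% of all genes on the higher side and 0.16% on the lower side. The differences ran from -0.78 for Cxcl10 to 0.85 for Ccl28 on the log2 scale. After these, Ccl20 (0.84) and Ccl11 (-0.74) were farthest from 0. This comparison shares an array with each of the others. The WT colitis array had the highest signal of the 3 for 29 of the 56 genes (51.8%) and for 30.4% of all genes.

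Other genes of the pathway were taken from lists of chemokine relatives, receptor signalling, inducing cytokines and response regulators. Among 8 relatives outside the symbol rule, Ppbp, a platelet CXC chemokine, passed 2-fold by listed values, with 3.47, 4.64 and 3.47. It was more than 2-fold higher on the WT colitis array than on each of the other arrays, where it was dim. Of 15 genes of receptor signalling, 1 was more than 2-fold higher on the WT colitis array and 0 lower. It was Rgs2, a brake on G proteins, with 5.27, 6.94 and 6.02. Of 20 inducing cytokines and their receptors, 2 had listed values more than 2-fold higher on the WT colitis array than on the normal array. They were Ifnar2 (6.58, 7.60 and 6.73) and Il1a (2.41, 3.64 and 3.05). Il1a was dim on all 3 arrays, so no fold is given for it. Il4ra alone was more than 2-fold lower on the IL-4Rα-/- array than on the WT colitis array. Il17a, Ifng, Il4 and Il13 were dim with the same value on each array, and 8 of the 20 were dim throughout. Of 17 response regulators, Socs3, a feedback inhibitor of Stat3, was more than 2-fold higher on the WT colitis array (5.15, 6.48 and 5.57), and Irf7, a regulator of interferon responses, was more than 2-fold lower on the IL-4Rα-/- array than on the WT colitis array (8.56, 8.70 and 7.44).

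Markers of several cell types differed in the same direction as the chemokines. By listed values, 2 of 14 neutrophil markers were more than 2-fold higher on the WT colitis array than on the normal array. The same 2, S100a8 (2.62, 4.27 and 2.58) and Mmp9 (3.45, 4.58 and 3.50), were more than 2-fold lower on the IL-4Rα-/- array than on the WT colitis array. Both were dim on the normal and IL-4Rα-/- arrays. The neutrophil list had a median of 3.07, 3.42 and 3.00, and 10 of its 14 genes were dim on all arrays, among them Mpo at 2.32. Its summed linear signal of 1308, 1947 and 1653 was made up mostly of Ly6g (10.24, 10.81 and 10.60), which was singled out after its value was seen. On the normal array 13 of the 14 genes were dim, so this sum is not read as a level of neutrophils. Of 13 monocyte and macrophage markers, 1 passed 2-fold by listed values, the scavenger receptor Cd163 with 3.12, 4.22 and 3.12. It was dim on the normal and IL-4Rα-/- arrays. Between the colitis arrays, 9 of the 13 were lower on the IL-4Rα-/- array, 3 the same and 1 higher, Cd14 (5.75, 6.10 and 6.60). The list's median was 5.80, 6.10 and 6.11. Its summed linear signal of 1508, 2085 and 1485 depended most on Lyz2 (9.60, 10.12 and 9.47), the gene of highest signal. Mast cell markers had the most genes past 2-fold of the marker lists for immune cells, with 4 of 9 more than 2-fold higher on the WT colitis array than on the normal array and 4 lower on the IL-4Rα-/- array than on the WT colitis array. Cpa3, a mast cell carboxypeptidase, had 3.50, 6.82 and 4.29, Mcpt1 had 5.57, 8.60 and 6.78, and the list's summed linear signal was 294, 1188 and 428. That sum depended on few genes, and 4 of the 9 were dim on all arrays. Kit (7.19, 7.43 and 7.19) had the highest signal of the list on the normal and IL-4Rα-/- arrays, and Mcpt2 (8.84) on the WT colitis array. Fcer1a, the IgE receptor chain, had 2.90, 4.07 and 3.03, dim on the normal and IL-4Rα-/- arrays.
Fibroblast and endothelial markers did so too. Of 8 fibroblast markers, 2 were more than 2-fold higher on the WT colitis array than on the normal array. On the IL-4Rα-/- array 3 were more than 2-fold lower than on the WT colitis array, Dcn, Pdgfra and Pdgfrb. The list's summed linear signals of 1404, 2794 and 1366 were made up mostly of Dcn (9.49, 10.76 and 9.49), while Lum was 5.47 on each array. Of 10 endothelial markers, 2 passed 2-fold in each comparison, Pdpn and Cdh5, with summed signals of 492, 814 and 479. T cell markers did not pass 2-fold (summed linear signal of 197, 226 and 225), nor did dendritic cell markers (103, 103 and 102). The part of these cell types, and of disease severity, in the chemokine differences was not tested.

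**Figure D4:**
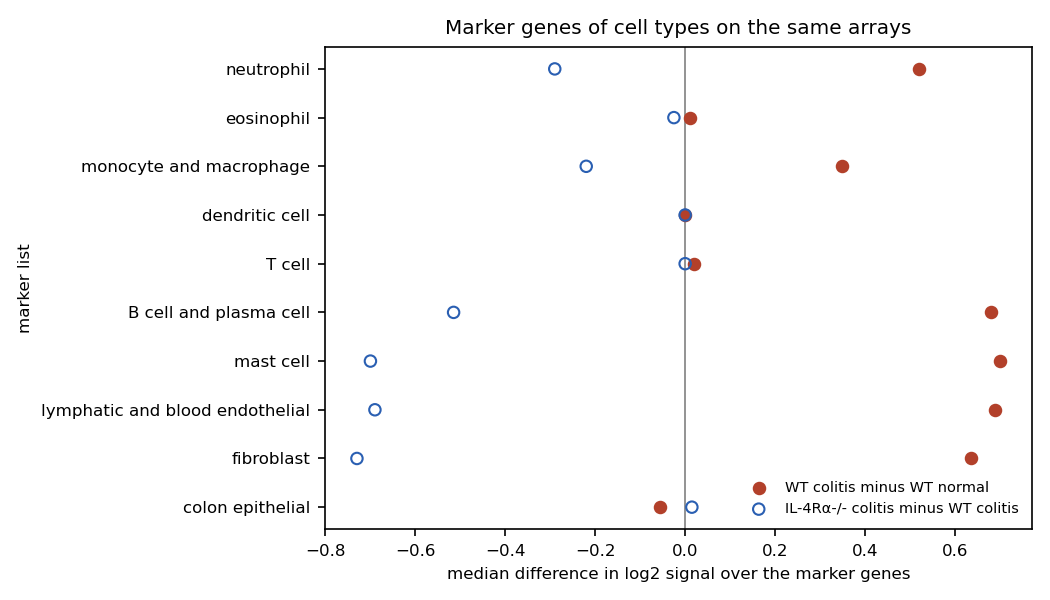
Median difference in log2 signal (x axis) over the marker genes of each of 10 cell types (y axis) for WT colitis minus normal (filled red) and IL-4Rα-/- minus WT colitis (open blue). The medians for B cells and plasma cells lie at 0.68 and -0.52 and those for fibroblasts at 0.64 and -0.73, while T cells, dendritic cells and eosinophils lie near 0.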

How the data were processed

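Total RNA of the distal colon was pooled by group and hybridised to a GeneChip Mouse Gene ST array (Affymetrix), 1 array for each of 3 groups. The labels name an Agilent Cy3 labelling kit, but the probe set numbers are those of the GeneChip. The authors deposited log2 signals with 2 decimals, summarised over probes and on a common scale (medians of 4.11, 4.18 and 4.11). The summary and normalization method and the genome build are not given in the sources used here.

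Differences were taken between these log2 signals, and genes past 2-fold (a difference of 1) and 4-fold (2) were counted. With 1 array per group there was no significance test, and the number of arrays limits the precision. Of the probe sets, 21789 had 1 symbol in the platform annotation, 1621 had several and 5534 had none here, and 21698 of the 21789 matched a RefSeq gene number. The members and lists were chosen with earlier results of these data known. Named genes were those past 2-fold in any comparison, Cxcl1, Cxcl2, Il4ra, and up to 4 genes past 2-fold of each list. The 5 ligands and 5 receptors with the highest mean signal were named too. Apart from that choice, the choice of 1 probe set per gene, and the sums and ranges over marker lists, signals of different probe sets were not ranked against each other. Remaining members, marker genes within 2-fold and the motif searches were added after values were seen. The exocrine pancreas list was added likewise.

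Alternatives tried were centring by array medians, quantile normalization, adding 32 to the linear signals, a minimum mean of 4, averaging the probe sets of each gene, unchanged symbols and, added after the data were seen, a threshold of 0.8. The counting step was tested on simulated data. The work used Python 3.11.15, numpy 2.4.6, pandas 2.3.3 and matplotlib 3.10.9.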

Additional observations from a re-analysis of the deposited data

How the results depend on the processing

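With 32 added to the linear signals, which shrinks differences of dim probe sets, 1 gene was more than 2-fold higher on the WT colitis array than on the normal array (Cxcl13), 2 were lower on the IL-4Rα-/- array than on the WT colitis array (Ccl11 and Cxcl13), and 0 were higher there. Cxcl2 then differed by 0.43 and -0.40 in these comparisons, Cxcl5 by 0.46 and -0.41, and Cxcl1 by 0.41 and -0.41. Ccl2 differed by 0.79 and -0.79, and Ccl7 by 0.80 and -0.88. With the filter on a mean of at least 4, Cxcl2 and Cxcl5 were left out, 3 of the 27 genes kept were more than 2-fold higher on the WT colitis array (Ccl2, Ccl7 and Cxcl13), beside 205 of 11093 genes in all, and the ligands' median in that comparison was 0.40 instead of 0.18. With a threshold of 0.8, 9 genes were higher on the WT colitis array than on the normal array, Cxcr4 and Cxcr5 among them, 9 were lower on the IL-4Rα-/- array than on the WT colitis array, and 2 (Ccl20 and Ccl28) were higher on the IL-4Rα-/- array than on the normal array. Of all genes, 231 passed 2-fold upward and 91 downward on the WT colitis than on the normal array, 81 and 58 with 32 added, and 401 and 135 with the threshold of 0.8. For IL-4Rα-/- against WT colitis these were 54 and 181, 34 and 73, and 78 and 321, and for IL-4Rα-/- against normal 37 and 67, 18 and 44, and 71 and 101. Under the alternatives run, the other counts among the 56 genes stayed within 1.5 times, and no difference past 2-fold changed sign. The other medians moved by less than the robust spread of the differences (0.178, 0.148 and 0.089). That spread was taken over probe sets whose values were not identical on all 3 arrays. Centring the arrays moved the median of all genes by -0.07 between the WT arrays. No paired analysis was possible because each group had 1 pooled array. Leaving out an array was not possible for the same reason. Dim signals limit what can be said of most receptors.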

Other observations

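Some members shared 1 listed value with many unrelated probe sets. Cxcr1, Cxcr3 and Cxcr6 were each at 3.12 on all 3 arrays, as were 270 of the 28944 probe sets. Ackr2, Xcl1 and Xcr1 were at 3.41 with 204 probe sets, and Ccr1l1 and Ccr9 at 2.62 with 489. All 8 of these genes were dim.

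The probe sets for several Ccl21 genes at once, which belong to no single symbol, were listed at 7.89, 8.82 and 7.89 on each of 4 probe sets. Ccl21 is the other ligand of Ccr7, and the copies cannot be told apart here. The 3 probe sets for several Ccl27 genes ran from 4.25 to 4.65 on the normal array, from 4.52 to 4.75 on the WT colitis array and from 4.25 to 4.65 on the IL-4Rα-/- array.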
